A study of Mus musculus with 20 samples.

Results

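The genes described here encode the matrix metalloproteinases (MMP genes), the ADAMTS proteases and the tissue inhibitors of metalloproteinases (TIMP genes). They were chosen by name, as every gene symbol in the expression table made of Mmp, Adamts or Timp and a number, which gave 46 of 18722 genes: 23 MMP, 19 ADAMTS and 4 TIMP genes. The rule used names only, though the set was chosen with earlier results of these data known. The series measured RNA by sequencing in 20 libraries of mouse tumours grown from the cervical cancer line U14, in 4 groups of 5 with 16565807 to 19833872 reads per library recovered from the values, and set an antagonist of the chemokine receptor CXCR4 and a checkpoint antibody, alone and together, against a control.

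The 4 groups were Plerixafor (the CXCR4 antagonist), anti-PD-1 (an antibody to the T cell checkpoint receptor PD-1), Combination and Solution, the control, all from U14 tumours. The labels give the treatment and a replicate number for each library, but no dose, time, mouse strain, sex or age, and they do not say whether the replicates came from separate mice. The p-values therefore measure the spread between these libraries. RNA came from tumour tissue, which can hold stroma and leukocytes of the host beside the cancer cells, and in such bulk samples fewer cells of a type and less RNA per cell cannot be told apart. The 4 groups fell into a pair of blocks over all genes: the first principal component (68.4% of the variance) separated Plerixafor and Combination libraries from anti-PD-1 and Solution libraries. Among single libraries, anti-PD-1 1, 2, 3 and 5 carried skeletal muscle genes at a mean log2(FPKM + 1) of 9.66 to 12.6 and anti-PD-1 4 at 3.74, where Solution libraries had 0.65 to 6.61. Plerixafor library 5 had the highest fibroblast and macrophage marker levels of its group. Solution libraries 3 and 5 carried keratinocyte genes at 4.10 and 3.52, where the other Solution libraries stayed under 1. The 9 epithelial tumour cell markers had a mean level of 2.96 to 3.98 in Plerixafor, 0.99 to 3.91 in anti-PD-1, 2.92 to 4.32 in Combination and 3.19 to 5.95 in Solution libraries, lowest in anti-PD-1 library 1. Their summed FPKM was 779 to 1116 in Plerixafor, 11.7 to 224 in anti-PD-1, 810 to 1191 in Combination and 113 to 906 in Solution. The list split: by the tests below 3 were higher and 6 lower than in Solution, in Plerixafor and in Combination alike. In anti-PD-1 6 were lower and 0 higher.

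MMPs are zinc proteases that cut collagens, gelatin, elastin and other matrix proteins, and most are secreted as inactive precursors that are cut to become active. TIMPs block the active site of MMPs, and Timp2 also has a part in activation, since it bridges the membrane-type protease Mmp14 to the precursor of Mmp2 on the cell surface. ADAMTS proteases cut proteoglycans such as aggrecan and versican or trim the ends of procollagens. In tumours much of this gene expression is known to come from fibroblasts, macrophages and neutrophils around the cancer cells.

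A run of 10 MMP genes lies side by side on mouse chromosome 9, in the order Mmp13, Mmp12, Mmp1b, Mmp3, Mmp1a, Mmp10, Mmp8, Mmp27, Mmp20 and Mmp7. The promoters of 32 of the 46 genes were matched in RefSeq (build GRCm38.p6, where the submitters' processing notes name GRCm39), from 250 bases before to 50 after the annotated start. A few are shown to set promoters of the cluster beside those of other members. Whether a motif bears on the level of any gene was not tested. The stretches below run 5′ to 3′ from base -100 to base +20 around the start, and capitals mark matches on either strand to TGANTCA, the AP-1-type motif, or TATAA, the TATA-type motif. The first 4 are cluster genes, at chr9:7445722-7445841, chr9:7502242-7502361, chr9:7272414-7272533 and chr9:7558329-7558448, and the last 3 are Mmp14 at chr14:54431498-54431617, Timp1 at chrX:20870066-20870185 and Mmp24 at chr2:155775242-155775361, all on the plus strand.
Mmp3: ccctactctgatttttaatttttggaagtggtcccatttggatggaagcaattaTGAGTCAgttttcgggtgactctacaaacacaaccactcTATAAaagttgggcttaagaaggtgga
Mmp10: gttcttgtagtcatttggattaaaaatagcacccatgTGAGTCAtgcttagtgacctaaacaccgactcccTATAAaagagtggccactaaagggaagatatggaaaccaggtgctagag
Mmp13: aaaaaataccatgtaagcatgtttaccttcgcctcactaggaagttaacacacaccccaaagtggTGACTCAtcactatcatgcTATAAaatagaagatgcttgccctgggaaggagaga
Mmp8: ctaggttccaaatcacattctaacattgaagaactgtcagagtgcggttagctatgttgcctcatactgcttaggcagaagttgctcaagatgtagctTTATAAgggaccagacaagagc
Mmp14: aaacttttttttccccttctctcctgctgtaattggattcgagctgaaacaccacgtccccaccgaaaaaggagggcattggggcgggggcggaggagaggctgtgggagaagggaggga
Timp1: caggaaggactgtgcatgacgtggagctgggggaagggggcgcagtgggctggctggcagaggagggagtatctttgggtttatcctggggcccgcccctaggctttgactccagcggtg
Mmp24: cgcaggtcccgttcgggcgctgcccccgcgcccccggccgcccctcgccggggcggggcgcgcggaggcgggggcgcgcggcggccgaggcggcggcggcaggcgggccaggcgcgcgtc

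TGANTCA stood in 8 of the 10 cluster promoters (all but Mmp8 and Mmp27) and in 0 of the 22 other matched members, against 8.97% of the 27025 genes in the RefSeq promoter table. Mmp2 and Mmp9 were among the genes without a matched promoter, so the motifs were not searched in them. TATAA stood in 9 of the 10 cluster promoters, in 4 of the 22 others and in 27.99% of all genes. GGGCGG, a GC-box core, was found in 0 of the 10 cluster promoters, in 18 of the 22 others, Mmp14, Timp1, Timp2 and Mmp24 among them, and in 38.2% of all genes. Each motif was searched on both strands, and the letters of the 3 motifs allow no overlap between them. A match describes the letters of the window only, and whether any factor binds there was not measured.

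**Figure D1:**
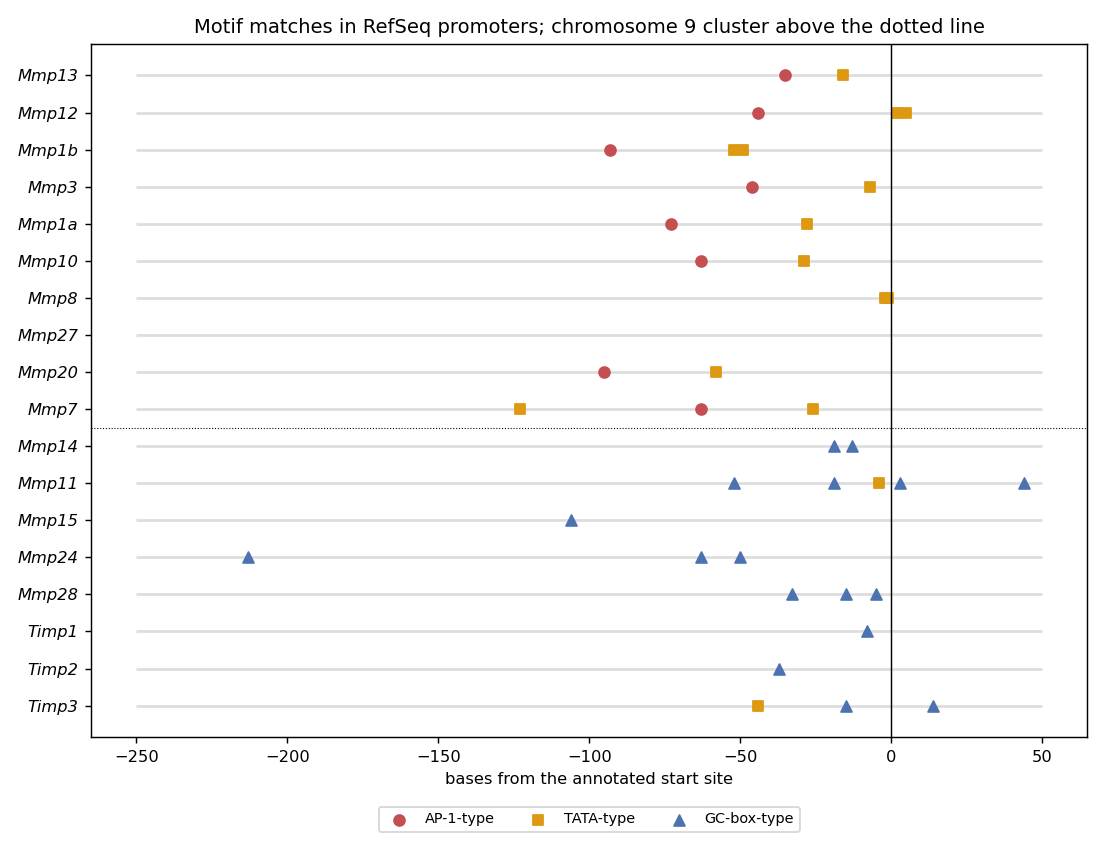
Matches to 3 motifs in the promoter windows of 18 members, with the distance of each match's first base from the annotated start site (bases) on the x axis and 1 gene per row. Circles (AP-1-type, TGANTCA) stand in 8 and squares (TATA-type, TATAA) in 9 of the 10 chromosome 9 rows above the dotted line, with none in Mmp27, while triangles (GC-box-type, GGGCGG) appear only in the rows below it.

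Levels are given as the deposited FPKM (fragments scaled for gene length and library size), which is a level per length, so genes can be set side by side. By the mean over all 20 libraries the highest members were Timp2 (198), Mmp2 (198), Mmp14, Mmp12, Mmp3, Timp1, Mmp13 and Timp3, and the lowest was Mmp20. In Plerixafor libraries the 46 genes summed to 489 ± 214 FPKM, in anti-PD-1 libraries to 1462 ± 557, in Combination libraries to 452 ± 96.6 and in Solution libraries to 2314 ± 419 (SD, n = 5 each). The sums of the Plerixafor libraries (344 to 866) and of the Combination libraries (305 to 545) all lay below those of the Solution libraries (1761 to 2933), while those of the anti-PD-1 libraries (503 to 1812) overlapped all 3 other groups.

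MMP and TIMP sums were set against each other in each library, with no test. The ratio of summed MMP to summed TIMP FPKM was 1.17 ± 0.338 in Plerixafor libraries, 2.67 ± 1.37 in anti-PD-1 libraries, 1.10 ± 0.170 in Combination libraries and 3.34 ± 1.21 in Solution libraries (SD, n = 5 each). TIMP genes made up 42.3 ± 5.30% of the members' FPKM in Plerixafor libraries, 27.7 ± 9.51% in anti-PD-1, 43.2 ± 3.58% in Combination and 22.7 ± 5.39% in Solution libraries. Within the TIMP sum, Timp1 held 51.4 ± 16.04% in Plerixafor, 8.21 ± 4.10% in anti-PD-1, 50.2 ± 9.77% in Combination and 15.3 ± 4.98% in Solution libraries. By group mean the most abundant inhibitor was Timp1 in the groups given the antagonist and Timp2 in the others.

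**Figure D2:**
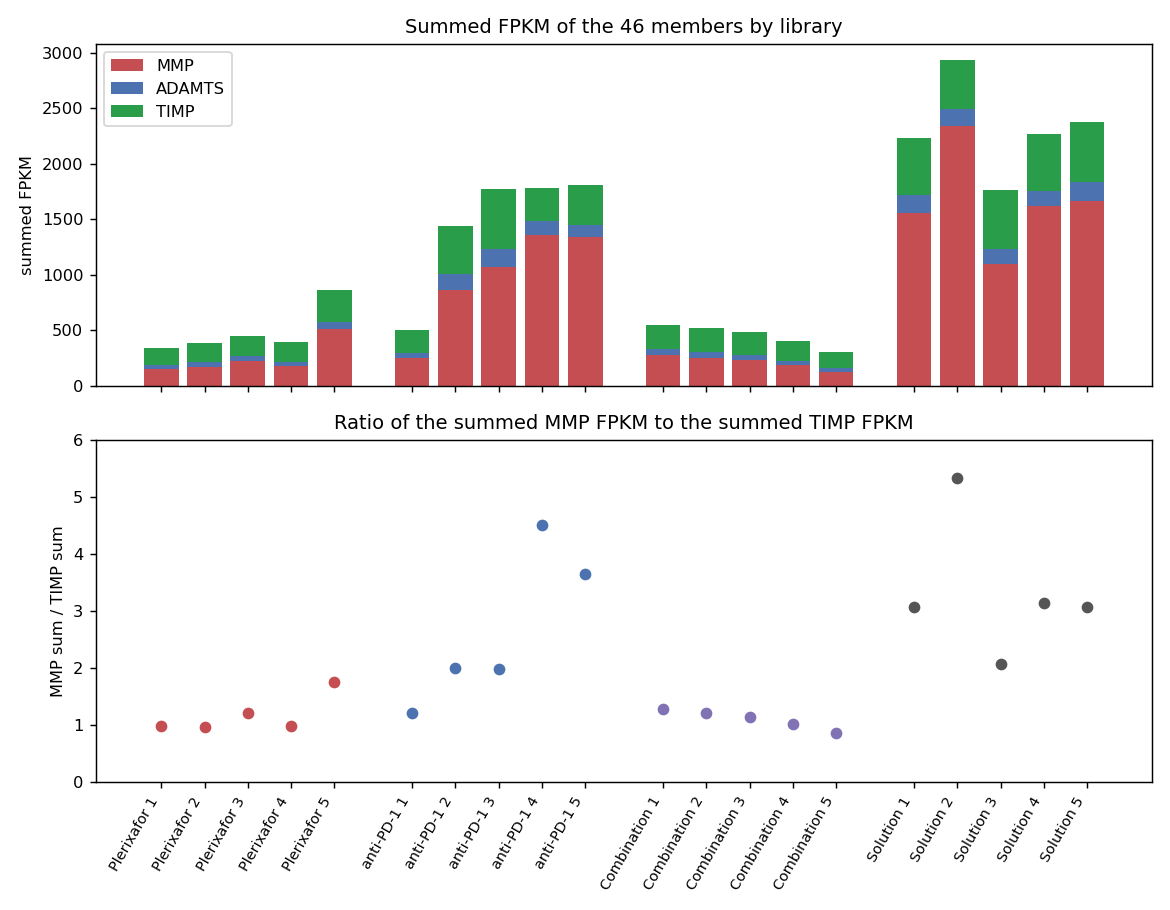
Summed FPKM of the MMP, ADAMTS and TIMP genes in each of the 20 libraries (stacked bars, top) and the ratio of the MMP sum to the TIMP sum (points, bottom). Plerixafor ratios run over 0.962 to 1.75 and Combination ratios over 0.852 to 1.28004, all below the Solution ratios of 2.06 to 5.34, while anti-PD-1 ratios run over 1.203 to 4.52.

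Tests were made on log2(FPKM + 1) with limma over all 12687 genes that reached 1 FPKM in at least 5 libraries, with Benjamini-Hochberg adjustment within each comparison and a threshold of 0.05. Fold changes below are on this scale, which understates the change of low genes. The value after ± is the standard error from the fit for a fold change, and the SD between libraries for a mean FPKM. Of the 46 genes, 33 were tested (17 MMP, 12 ADAMTS and 4 TIMP), and 16 of them reached 1 FPKM in all 20 libraries. Timp4, Mmp17 and Adamts17 stayed under 1 FPKM in every library given the antagonist, and Mmp24 in every library not given it, so these 4 entered the test through the groups in which they were higher. Mmp10 reached 1 FPKM in only 1 Plerixafor and 1 Combination library, and Mmp27 and Adamts7 in 1 Plerixafor and 0 Combination libraries. They too met the minimum of 5 libraries only through the anti-PD-1 and Solution groups, in which they were higher. All of these genes are kept in the counts below. Each comparison with Solution uses the same 5 Solution libraries.

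In Plerixafor against Solution, 28 of the 33 tested members passed the threshold, 3 higher and 25 lower, where 75.5% of all genes tested passed, 42.3% higher and 33.2% lower. The 17 tested MMP genes all passed, 15 of them lower; of 12 ADAMTS genes 8 were lower and 1 higher, and of 4 TIMP genes 2 were lower. The median log2 fold change of the tested members was -1.91, against 0.13 over all genes. In 22 of the 33 every Plerixafor library lay below every Solution library, which held for 29.1% of all genes, and in 1 (Mmp24) every Plerixafor library lay above, which held for 41.5%. With no filter, all 46 could be tested and 33 passed, 4 higher and 29 lower, where 61.8% of 18722 genes did, 31.6% higher and 30.2% lower.

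Combination against Solution gave nearly the same counts: 27 of the 33 passed, 2 higher and 25 lower, where 76.1% of all genes passed, 42.0% higher and 34.1% lower. The median was -1.84, against 0.10 over all genes, and 25 members had every Combination library below every Solution library (33.0% of all genes). With no filter 32 of 46 passed (62.1% of 18722 genes). In anti-PD-1 against Solution only 2 of the 33 passed, Timp1 and Mmp11, both lower, where 11.5% of all genes passed, 8.38% higher and 3.08% lower. The median there was -0.55, against -0.11 over all genes, and 10 of the 33 had an unadjusted p under 0.05 (34.1% of all genes). In none of the 33 were the anti-PD-1 and Solution libraries without overlap, where 2.89% of all genes lay wholly higher and 2.8% wholly lower in anti-PD-1. With no filter 3 of 46 passed, 1 higher and 2 lower, where 9.65% of 18722 genes did, 6.74% higher and 2.92% lower.

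**Figure D3:**
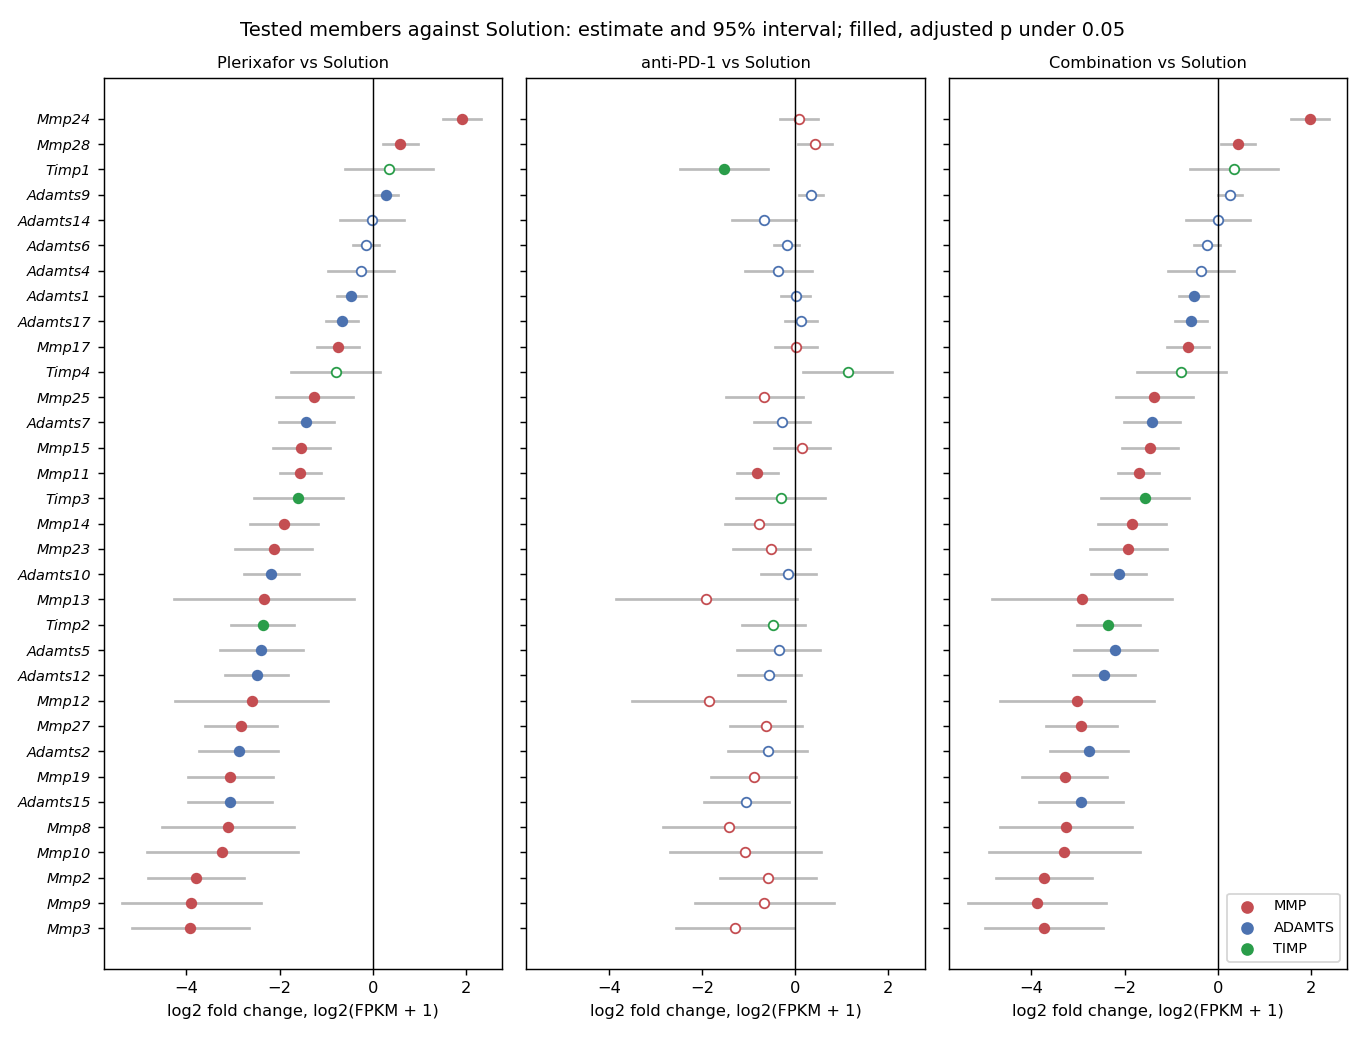
Log2 fold change with its 95% interval for the 33 tested members in Plerixafor, anti-PD-1 and Combination, each against Solution, ordered by the Plerixafor comparison; filled points passed an adjusted p of 0.05 and colours mark the family. The left and right panels run alike, from Mmp24 at 1.92 and 1.99 down to Mmp3 at -3.91 and -3.74, while in the middle panel only Timp1 and Mmp11 are filled.

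The gelatinases Mmp2 and Mmp9, which cut denatured collagen and the collagen of basement membranes, were among the members with the largest falls. Mmp2 stood at 12.5, 25.3, 24.7, 22.4 and 112 FPKM in the 5 Plerixafor libraries, at 134, 390.1, 454, 259 and 268 in anti-PD-1, at 55.3, 47.9, 42.7, 20.3 and 10.52 in Combination and at 485, 404, 391, 381 and 422 in Solution libraries. Every library of the antagonist groups lay below every Solution library, Plerixafor library 5 came closest, and anti-PD-1 libraries lay on both sides of the lowest Solution library. The log2 fold change against Solution was -3.79 ± 0.49 (adjusted p = 1.46e-06) in Plerixafor, -0.58 ± 0.49 (adjusted p = 0.386) in anti-PD-1 and -3.74 ± 0.49 (adjusted p = 1.72e-06) in Combination. Mmp9, the gelatinase made largely by neutrophils and macrophages, stood at 1.63, 1.47, 2.58, 1.34 and 4.40 FPKM in Plerixafor, at 3.43, 21.2, 22.8, 125 and 71.6 in anti-PD-1, at 3.97, 3.11, 1.503, 1.52 and 1.37 in Combination and at 29.4, 149.7, 12.4, 66.1 and 51.2 in Solution libraries. The antagonist groups sat together below all Solution libraries, and the Solution libraries themselves spread widely. Its log2 fold change was -3.90 ± 0.70 (adjusted p = 6.78e-05) in Plerixafor, -0.67 ± 0.70 (adjusted p = 0.489) in anti-PD-1 and -3.88 ± 0.70 (adjusted p = 6.93e-05) in Combination.

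**Figure D4:**
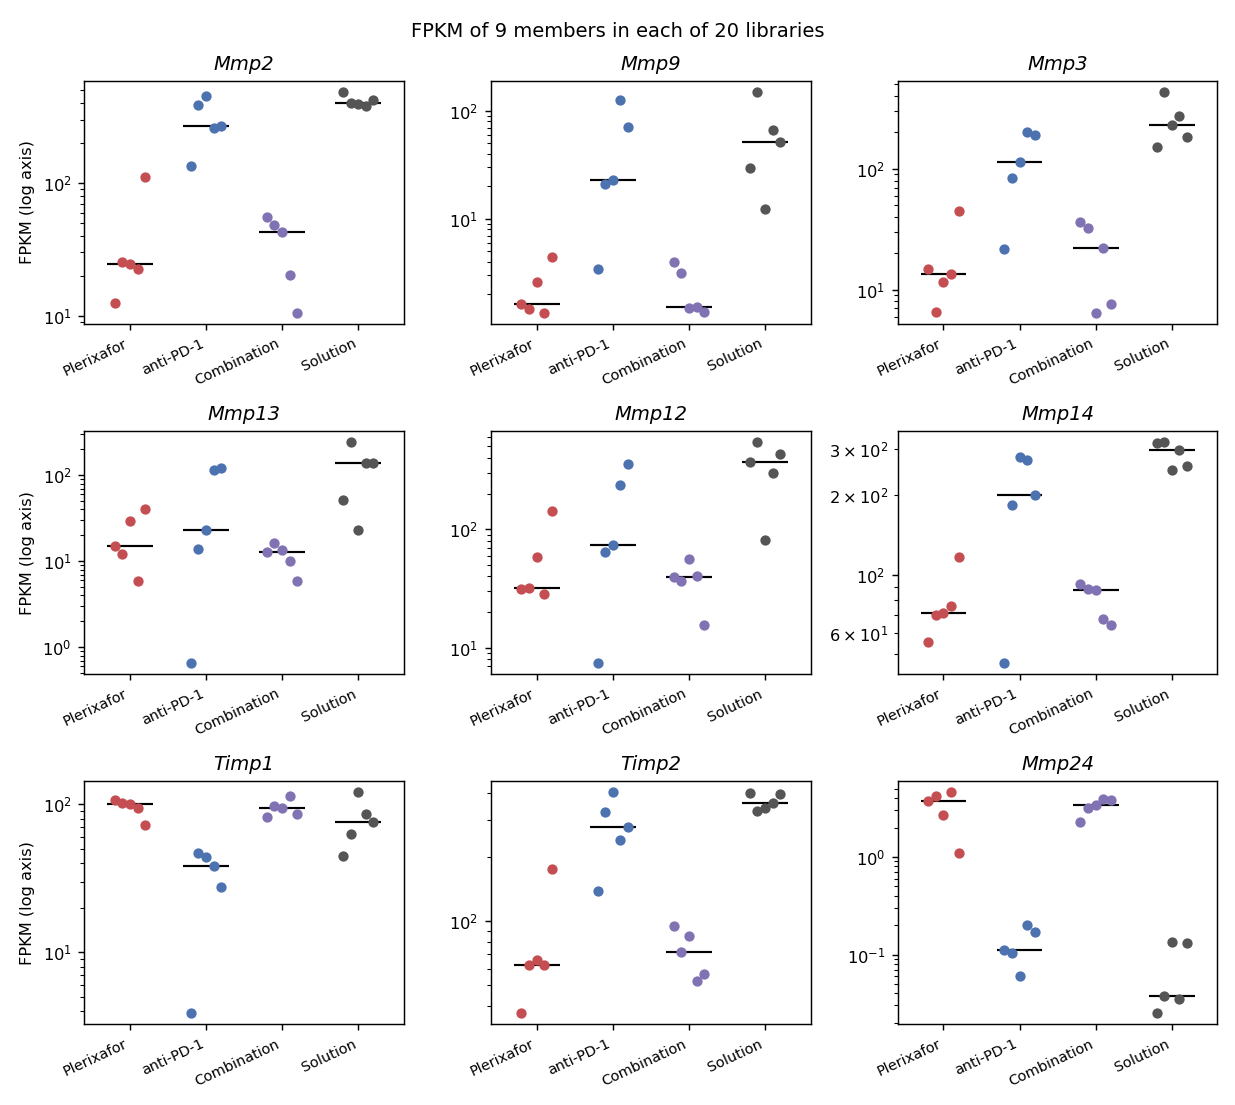
FPKM of 9 members in each library on log axes, with the 5 libraries of a group as points in replicate order and the group median as a line. In Mmp2, Mmp9, Mmp3, Mmp14 and Timp2 the Plerixafor and Combination points lie below all Solution points, Timp1 overlaps between these groups with anti-PD-1 library 1 at 3.88, and Mmp24 is above 1 FPKM only in Plerixafor and Combination libraries.

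The stromelysins Mmp3 and Mmp10 cut a wide range of matrix proteins and activate other MMPs. Mmp3 stood at 14.7, 6.60, 11.6, 13.4 and 44.4 FPKM in Plerixafor, at 21.6, 84.3, 114, 199.7 and 191 in anti-PD-1, at 36.4, 32.1, 6.43, 21.96 and 7.56 in Combination and at 152, 431, 229.7, 275 and 182 in Solution libraries. No Plerixafor or Combination library reached the lowest Solution library. For Mmp3 the log2 fold change was -3.91 ± 0.60 (adjusted p = 1.08e-05) in Plerixafor, -1.30 ± 0.60 (adjusted p = 0.136) in anti-PD-1 and -3.74 ± 0.60 (adjusted p = 1.81e-05) in Combination. Mmp10, also in the chromosome 9 cluster, stood at 0.473, 0.614, 0.312, 0.530 and 1.19 FPKM in Plerixafor, at 0.209, 4.14, 3.77, 27.9 and 20.7 in anti-PD-1, at 1.13, 0.818, 0.0993, 0.590 and 0.246 in Combination and at 9.501, 59.1, 1.40, 20.9 and 21.8 in Solution libraries. The Solution libraries varied more than in any other tested member, library 2 being highest and library 3 lowest, and library 3 only just exceeded Plerixafor library 5. The log2 fold change of Mmp10 was -3.23 ± 0.76 (adjusted p = 8.93e-04) in Plerixafor, -1.07 ± 0.76 (adjusted p = 0.309) in anti-PD-1 and -3.29 ± 0.76 (adjusted p = 7.53e-04) in Combination.

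Mmp11, a stromelysin made by tumour fibroblasts and lying outside the cluster, passed in all 3 comparisons with Solution. It stood at 4.90, 6.89, 5.65, 6.38 and 9.65 FPKM in Plerixafor, at 7.52, 13.4, 17.7, 11.4 and 10.4 in anti-PD-1, at 6.60, 5.01, 5.92, 5.44 and 6.28 in Combination and at 27.0, 24.7, 26.2, 12.9 and 18.7 in Solution libraries. The antagonist groups did not overlap with Solution, and anti-PD-1 libraries overlapped with Solution through their library 2 and library 3 and Solution library 4. On the log2 scale it changed by -1.56 ± 0.21 (adjusted p = 2.48e-06) in Plerixafor, -0.81 ± 0.21 (adjusted p = 0.0224) in anti-PD-1 and -1.70 ± 0.21 (adjusted p = 8.29e-07) in Combination. The anti-PD-1 call was lost in 9 of 32 alternatives, 5 of them leaving out anti-PD-1 1 or 5 or Solution 1, 2 or 3 (adjusted p = 0.0510 to 0.0617). In the other 4 the adjusted p was 0.0852 with array weights (-0.49), 0.176 with the pair of groups fitted alone, 0.661 with the muscle covariate and 0.870 without anti-PD-1 1, 2 and 5 (-0.54).

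Among the collagenases, which cut intact fibrillar collagen, Mmp13 and Mmp8 were tested. Mmp13 stood at 15.2, 12.0, 29.5, 5.87 and 40.6 FPKM in Plerixafor, at 0.654, 13.9, 23.0, 114 and 119.8 in anti-PD-1, at 12.8, 16.2, 13.4, 9.93 and 5.81 in Combination and at 51.9, 242, 23.2, 137 and 139.7 in Solution libraries. Solution library 3 lay within the Plerixafor range, while every Combination library lay below it. Its log2 fold change was -2.34 ± 0.91 (adjusted p = 0.0273) in Plerixafor, -1.91 ± 0.91 (adjusted p = 0.148) in anti-PD-1 and -2.91 ± 0.91 (adjusted p = 0.00768) in Combination. The Plerixafor call of Mmp13 was lost in 6 of 32 alternatives (adjusted p = 0.0532 to 0.0734), 5 of them leaving out 1 library (Plerixafor 2 or 4, or Solution 2, 4 or 5). Mmp8, the neutrophil collagenase, averaged 1.2797 ± 0.927 FPKM in Plerixafor, 10.3 ± 10.7 in anti-PD-1, 0.972 ± 0.344 in Combination and 23.1 ± 15.6 in Solution libraries (SD, n = 5 each). Its log2 fold change was -3.12 ± 0.67 (adjusted p = 3.77e-04) in Plerixafor and -3.26 ± 0.67 (adjusted p = 2.42e-04) in Combination.

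Mmp1b and Mmp1a, the mouse counterparts of the interstitial collagenase, are close copies of each other, so reads may be split between them. Mmp1b, too low for the filter, stood at 1.40, 0.453, 0.461, 0.720 and 0.0864 FPKM in Plerixafor, at 0, 0.112, 0, 0.379 and 0.112 in anti-PD-1, at 0.462, 1.0001, 0.259, 0.728 and 0.321 in Combination and at 0.0270, 0.163, 0.0265, 0.126 and 0.103 in Solution libraries. These values rest on 113 reads in all in Plerixafor, 23 in anti-PD-1, 102 in Combination and 17 in Solution libraries. The Combination libraries all lay above the Solution libraries and Plerixafor library 5 lay among them. In the fit without a filter Mmp1b was higher in Plerixafor than in Solution, with a log2 fold change of 0.53 ± 0.16 (adjusted p = 0.00918), and likewise in Combination, at 0.49 ± 0.16 (adjusted p = 0.0140), while its cluster neighbours Mmp12 and Mmp3 were lower. Mmp1a was listed at 0 in every anti-PD-1 and Solution library and reached at most 0.0535 FPKM elsewhere.

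Mmp12, the macrophage elastase, stood at 31.2, 32.1, 58.2, 28.6 and 142 FPKM in Plerixafor, at 7.46, 64.6, 73.1, 235 and 352 in anti-PD-1, at 39.8, 36.8, 56.0, 40.4 and 15.8 in Combination and at 372, 542, 81.5, 298 and 434 in Solution libraries. Plerixafor library 5 exceeded Solution library 3, and otherwise the antagonist groups lay below Solution. Its log2 fold change was -2.60 ± 0.78 (adjusted p = 0.00561) in Plerixafor, -1.86 ± 0.78 (adjusted p = 0.109) in anti-PD-1 and -3.02 ± 0.78 (adjusted p = 0.00180) in Combination. Among the 6 tested cluster genes, Plerixafor library 5 was the highest of its group in 6 and anti-PD-1 library 1 the lowest in 6, and the same libraries were highest in 22 and lowest in 21 of the 27 other tested members. In the Combination group library 1 was highest in 4 of the 6 and the lowest value fell in libraries 3, 4 and 5 in 2 genes each. Among Solution libraries number 2 was highest in 5 and number 3 lowest in 4. Between the highest and lowest Solution library the cluster genes differed by 1.81-fold (Mmp27) to 42.1-fold (Mmp10), and the 27 other tested members by 1.21-fold (Timp2) to 26.5-fold (Timp4), Mmp9 by 12.1-fold.

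The membrane-type MMPs act at the cell surface, and they moved in both directions. Mmp14, which activates the precursor of Mmp2, stood at 55.6, 70.2, 71.7, 76.0 and 116 FPKM in Plerixafor, at 46.2, 184, 279, 273 and 201 in anti-PD-1, at 91.9, 88.5, 87.6, 67.7 and 64.3 in Combination and at 316, 318, 250.05, 297 and 259 in Solution libraries. Both antagonist groups lay below all Solution libraries, and so did anti-PD-1 libraries 1, 2 and 5. Its log2 fold change, -1.91 ± 0.35 (adjusted p = 7.48e-05) in Plerixafor, -0.77 ± 0.35 (adjusted p = 0.129) in anti-PD-1 and -1.84 ± 0.35 (adjusted p = 1.05e-04) in Combination, was smaller in size than that of Mmp2 in both antagonist groups. Mmp15 averaged 1.62 ± 0.463 FPKM in Plerixafor, 7.82 ± 2.98 in anti-PD-1, 1.79 ± 0.639 in Combination and 7.18 ± 4.33 in Solution libraries. Mmp25, a membrane-type MMP of leukocytes, averaged 1.82 ± 1.07, 3.85 ± 2.96, 1.65 ± 0.888 and 5.55 ± 1.48 FPKM in the same order of groups (SD, n = 5 each). Both fell in Plerixafor, by 1.53 and 1.26 on the log2 scale, and in Combination, by 1.45 and 1.36.

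Mmp24, a membrane-type MMP best known from neurons, was the member with the largest rise. It stood at 3.76, 4.24, 2.70, 4.61 and 1.11 FPKM in Plerixafor, at 0.112, 0.104, 0.0598, 0.199 and 0.168 in anti-PD-1, at 2.28, 3.15, 3.40, 3.89 and 3.82 in Combination and at 0.0250, 0.0377, 0.135, 0.0352 and 0.131 in Solution libraries. The groups did not overlap: every library given the antagonist exceeded 1 FPKM and every other library was at or below 0.199, with Plerixafor library 5 the lowest of its group. Behind these values lay 83 to 345 reads per Plerixafor library, 5 to 17 per anti-PD-1 library, 170 to 311 per Combination library and 2 to 11 per Solution library. Against Solution it changed by 1.92 ± 0.19 (adjusted p = 5.89e-08) in Plerixafor, 0.07 ± 0.19 (adjusted p = 0.790) in anti-PD-1 and 1.99 ± 0.19 (adjusted p = 3.49e-08) in Combination. In the RefSeq annotation Mmp24 overlaps BC029722, at 20.9 to 37.7 FPKM in these libraries. The strand setting of the counting is not given, so reads of the overlap could be counted to either gene. BC029722 averaged 32.3 ± 3.55 FPKM in Plerixafor and 23.0 ± 1.72 in Solution libraries.

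Of the other MMP genes, Mmp19 (a protease of wide substrate range), Mmp23 (a membrane-bound MMP) and Mmp27 fell and Mmp28 (epilysin, an MMP of epithelia) rose. Mmp19 stood at 4.29, 4.25, 8.35, 4.09 and 13.2 FPKM in Plerixafor, at 8.35, 40.9, 36.6, 39.7 and 57.3 in anti-PD-1, at 7.91, 6.58, 5.83, 5.35 and 1.98 in Combination and at 61.5, 84.7, 34.1, 58.0 and 67.5 in Solution libraries. Both antagonist groups lay below Solution. For Mmp19 the log2 fold change was -3.06 ± 0.43 (adjusted p = 4.17e-06) in Plerixafor and -3.28 ± 0.43 (adjusted p = 1.76e-06) in Combination. Mmp28 stood at 1.15, 2.37, 2.14, 2.51 and 3.44 FPKM in Plerixafor, at 1.84, 1.92, 1.82, 1.64 and 2.25 in anti-PD-1, at 1.72, 1.22, 2.27, 1.49 and 3.14 in Combination and at 1.69, 0.929, 1.11, 0.945 and 1.11 in Solution libraries. Plerixafor and Combination overlapped with Solution through Solution library 1. For Mmp28 the log2 fold change was 0.60 ± 0.17 (adjusted p = 0.00472) in Plerixafor, 0.43 ± 0.17 (adjusted p = 0.1005) in anti-PD-1 and 0.43 ± 0.17 (adjusted p = 0.0303) in Combination. The Combination call of Mmp28 was lost on leaving out Combination 3 or 5 or Solution 2, 4 or 5 (adjusted p = 0.0505 to 0.106).

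The ADAMTS proteoglycanases split by gene. Adamts5, the aggrecanase of cartilage, averaged 3.08 ± 3.41 FPKM in Plerixafor, 13.8 ± 5.24 in anti-PD-1, 3.43 ± 2.37 in Combination and 16.9 ± 2.56 in Solution libraries (SD, n = 5 each). Adamts15 averaged 1.94 ± 2.09 FPKM in Plerixafor, 10.6 ± 5.61 in anti-PD-1, 2.08 ± 1.51 in Combination and 20.5 ± 4.08 in Solution libraries. Both fell with no overlap, with a log2 fold change in Plerixafor of -2.40 ± 0.42 (adjusted p = 4.97e-05) and -3.06 ± 0.43 (adjusted p = 4.00e-06). Adamts1, which cuts versican, fell by 0.46 in Plerixafor (adjusted p = 0.00816) and by 0.51 in Combination (adjusted p = 0.00399). Adamts4, another aggrecanase, averaged 6.27 ± 0.761 FPKM in Plerixafor, 6.81 ± 4.05 in anti-PD-1, 5.67 ± 0.569 in Combination and 7.93 ± 2.94 in Solution libraries and passed in no comparison.

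Adamts9, another proteoglycanase, stood at 2.53, 2.19, 2.85, 2.51 and 1.78 FPKM in Plerixafor, at 1.66, 2.77, 2.28, 3.12 and 2.69 in anti-PD-1, at 2.63, 2.14, 2.29, 2.01 and 2.45 in Combination and at 2.04, 1.99, 1.27, 1.49 and 1.98 in Solution libraries. All 3 treated groups overlapped with Solution. The log2 fold change was 0.29 ± 0.12 (adjusted p = 0.0362) in Plerixafor, 0.34 ± 0.12 (adjusted p = 0.0727) in anti-PD-1 and 0.27 ± 0.12 (adjusted p = 0.0515) in Combination. The Plerixafor call was lost in 8 of 31 alternatives (adjusted p = 0.0635 to 0.108), among them TPM, median-of-ratios scaling, the replicate block and leaving out Plerixafor 1, 3 or 4 or Solution 3 or 4.

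The procollagen N-proteinases, which trim newly made fibrillar collagen, also split. Adamts2 averaged 6.89 ± 5.17 FPKM in Plerixafor, 35.999 ± 15.3 in anti-PD-1, 7.41 ± 3.92 in Combination and 50.3 ± 5.93 in Solution libraries (SD, n = 5 each). It fell by 2.87 on the log2 scale in Plerixafor (adjusted p = 3.68e-06) and by 2.76 in Combination (adjusted p = 5.74e-06). Adamts14, with the same substrates, averaged 8.01 ± 1.37 FPKM in Plerixafor, 5.42 ± 2.87 in anti-PD-1, 8.04 ± 1.06 in Combination and 8.36 ± 2.87 in Solution libraries. Its log2 difference from Solution was -0.01 in Plerixafor, with a 95% interval of -0.69 to 0.68, and 0.01 in Combination, with an interval of -0.68 to 0.69. Adamts3, the other gene of this kind, was below the filter, and in the fit without one it was lower in Plerixafor, at -0.42 ± 0.08 (adjusted p = 1.62e-04), and in Combination, at -0.45 ± 0.08 (adjusted p = 7.32e-05).

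Adamts12 and Adamts7, which cut cartilage oligomeric matrix protein, both fell. Adamts12 averaged 2.00 ± 1.13 FPKM in Plerixafor, 11.1 ± 4.98 in anti-PD-1, 2.07 ± 0.911 in Combination and 15.2 ± 2.27 in Solution libraries (SD, n = 5 each), a log2 fold change of -2.49 ± 0.32 (adjusted p = 1.18e-06) in Plerixafor. Adamts7 averaged 0.757 ± 0.212 FPKM in Plerixafor, 3.24 ± 1.81 in anti-PD-1, 0.771 ± 0.196 in Combination and 3.92 ± 1.69 in Solution libraries. Adamts10, which binds the fibrillin of microfibrils, fell by 2.17 in Plerixafor and by 2.13 in Combination, and Adamts17 by 0.65 and by 0.57. Adamts6 did not pass, at -0.15 in Plerixafor and -0.23 in Combination.

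The 4 inhibitors behaved differently from each other. Timp2 stood at 37.0, 62.2, 66.0, 62.1 and 176 FPKM in Plerixafor, at 138, 325, 403, 239.7 and 278 in anti-PD-1, at 95.4, 71.4, 85.3, 52.1 and 56.5 in Combination and at 399, 328, 340.0, 359 and 394 in Solution libraries. No library given the antagonist reached the Solution range. For Timp2 the log2 fold change was -2.36 ± 0.32 (adjusted p = 2.70e-06) in Plerixafor, -0.47 ± 0.32 (adjusted p = 0.283) in anti-PD-1 and -2.35 ± 0.32 (adjusted p = 2.75e-06) in Combination. Timp3, which is held in the matrix and also blocks ADAMTS proteases, stood at 12.3, 15.1, 20.4, 21.1 and 41.8 FPKM in Plerixafor, at 48.7, 58.9, 92.9, 21.98 and 56.2 in anti-PD-1, at 35.9, 41.8, 26.5, 17.1 and 5.20 in Combination and at 62.5, 46.3, 70.2, 69.0 and 71.5 in Solution libraries. The antagonist groups again lay below Solution, with Combination library 5 the lowest of all. For Timp3 the log2 fold change was -1.59 ± 0.45 (adjusted p = 0.00357) in Plerixafor, -0.31 ± 0.45 (adjusted p = 0.616) in anti-PD-1 and -1.56 ± 0.45 (adjusted p = 0.00413) in Combination.

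Timp1, an inhibitor known to be induced by inflammatory and growth signals, did not follow them. It stood at 107, 102, 100.3, 94.7 and 72.03 FPKM in Plerixafor, at 3.88, 46.7, 44.3, 38.1 and 27.5 in anti-PD-1, at 81.9, 97.8, 94.2, 114 and 85.6 in Combination and at 45.0, 63.0, 120.1, 85.4 and 75.9 in Solution libraries. The antagonist groups lay inside the Solution range, the anti-PD-1 libraries mostly below it, and anti-PD-1 library 1 far below. Relative to Solution it differed by 0.34 ± 0.45 (adjusted p = 0.494) in Plerixafor, -1.53 ± 0.45 (adjusted p = 0.0348) in anti-PD-1 and 0.34 ± 0.45 (adjusted p = 0.495) in Combination, with 95% intervals of -0.60 to 1.29 in Plerixafor and -0.60 to 1.29 in Combination. With library 1 of the antibody group left out, the anti-PD-1 value was -0.93 (adjusted p = 0.0250). The call was lost in 8 of 32 alternatives, among them the muscle marker level as a covariate (-0.73, adjusted p = 0.820) and leaving out anti-PD-1 5 or Solution 2, 3, 4 or 5 (adjusted p = 0.0568 to 0.0841).

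Timp4, an inhibitor of muscle and fat, was low in most libraries. It stood at 0.0557, 0.0362, 0, 0.0195 and 0.117 FPKM in Plerixafor, at 14.6, 2.49, 2.29, 0.0856 and 3.99 in anti-PD-1, at 0.0392, 0.0893, 0.0390, 0.0549 and 0.0544 in Combination and at 2.43, 0.0919, 1.22, 0.566 and 0.489 in Solution libraries. Its highest value fell in anti-PD-1 library 1, the library with the highest muscle marker level (12.6), and anti-PD-1 library 4, with a muscle level of 3.74, had its lowest value of that group; the part of muscle RNA in this was not tested. Plerixafor library 5 exceeded Solution library 2, while every Combination library lay below every Solution library. These orderings rest on few reads: 6 in Plerixafor library 5 and 5 each in Combination library 2 and Solution library 2. The log2 fold change was -0.79 ± 0.45 (adjusted p = 0.119) in Plerixafor, 1.13 ± 0.45 (adjusted p = 0.0976) in anti-PD-1 and -0.78 ± 0.45 (adjusted p = 0.125) in Combination. The difference in Plerixafor passed in 7 of 30 alternatives, among them a pseudocount of 0.1 (-2.43, adjusted p = 0.0121).

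Adding the antibody to the antagonist left no member past the threshold. In Combination against Plerixafor limma called 0 of the 33 members and 0 had an unadjusted p under 0.05; among all genes 0.0% passed and 0.473% had an unadjusted p under 0.05, and limma-voom on the recovered reads also called 0 members. The log2 differences ran from -0.57 (Mmp13) to 0.21 (Mmp23). Their precision differed: the 95% interval was -0.98 to 1.10 for Mmp2, -0.95 to 0.94 for Timp1, -0.33 to 0.48 for Mmp24 and -2.51 to 1.37 for Mmp13, so a change of a few fold in the last was not detectable here.

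Combination against anti-PD-1, which sets the same antibody with and without the antagonist, called 25 of the 33 members, 2 higher and 23 lower, where 74.6% of all genes passed, 43.7% higher and 30.9% lower. The median log2 fold change was -1.25, against 0.15 over all genes. In 9 members every Combination library lay below every anti-PD-1 library (15.8% of all genes) and in 2 above (37.9%), and with no filter 31 of 46 passed (60.6% of 18722 genes). The 4 members with the largest falls were Mmp9 (-3.22 ± 0.70, adjusted p = 4.61e-04), Mmp2 (-3.16 ± 0.49, adjusted p = 1.25e-05), Mmp3 (-2.44 ± 0.60, adjusted p = 0.00125) and Mmp19 (-2.39 ± 0.43, adjusted p = 6.65e-05). The 2 that rose were Mmp24 (1.92 ± 0.19, adjusted p = 5.51e-08) and Timp1 (1.87 ± 0.45, adjusted p = 9.82e-04), and in both every Combination library lay above every anti-PD-1 library. With the muscle marker level as a covariate the Timp1 difference was 1.16 (adjusted p = 0.0682), and leaving out anti-PD-1 library 1 gave 1.27 (adjusted p = 3.79e-05). All 4 TIMP genes passed in this comparison, Timp2, Timp3 and Timp4 lower; the Timp3 call was lost in 5 of 32 alternatives, among them leaving out anti-PD-1 3 or Combination 5. With the muscle marker level as a covariate Timp3 was -0.78 (adjusted p = 0.246), against -1.25 without it, and Timp4 was -0.79 (adjusted p = 0.128), against -1.91 (adjusted p = 9.31e-04) without it.

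Whether the effect of the antibody differed with and without the antagonist was tested by the interaction, the Combination minus Plerixafor difference less the anti-PD-1 minus Solution difference. Limma called 0 of the 33 members, where 0.0% of all genes passed, and limma-voom also called 0. At an unadjusted p under 0.05 there were 4 members (15.4% of all genes): Timp1 at 1.53 ± 0.63 (adjusted p = 0.275), Mmp11 at 0.67 ± 0.30 (adjusted p = 0.305), Mmp28 at -0.59 ± 0.25 (adjusted p = 0.279) and Adamts9 at -0.36 ± 0.17 (adjusted p = 0.319).

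Markers of several cell types moved with these genes. The mean log2(FPKM + 1) of 12 fibroblast markers ran over 2.73 to 5.44 in Plerixafor, 5.55 to 6.97 in anti-PD-1, 2.38 to 4.80 in Combination and 6.67 to 6.997 in Solution libraries, and all 12 were lower in both antagonist groups against Solution. Their summed FPKM ran over 88.3 to 742 in Plerixafor, 878 to 2468 in anti-PD-1, 65.7 to 434 in Combination and 2036 to 2513 in Solution libraries, and 0 of the 12 stayed under 0.1 FPKM in every Plerixafor library. Skeletal muscle markers were higher in anti-PD-1 against Solution in 11 of 11. For 12 macrophage markers the ranges were 5.56 to 7.29, 5.63 to 8.42, 4.99 to 6.64 and 8.32 to 8.62 in the same order of groups, again with all 12 lower in both antagonist groups. Of 8 tested neutrophil markers 6 were lower in Plerixafor and 8 in Combination. Of 8 endothelial markers 7 were lower in each antagonist group and 3 were higher in anti-PD-1, and of 8 tested T cell markers all 8 were lower in each antagonist group and 0 passed in anti-PD-1. The 10 proliferation genes were all higher in both, at 5.43 to 6.25 in Plerixafor, 1.68 to 3.87 in anti-PD-1, 5.92 to 6.22 in Combination and 2.74 to 3.14 in Solution libraries. Over all genes tested, 33.2% were lower and 42.3% higher in Plerixafor against Solution, 34.1% and 42.0% in Combination, and 3.08% and 8.38% in anti-PD-1. The part of these cell types in the change of each member was not tested. Plerixafor library 5, whose fibroblast level of 5.44 was the highest of its group, was the highest Plerixafor library in 28 of the 33 tested members and the lowest in 4, Mmp24 and Timp1 among them.

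The 8 tested members with the highest mean level were set against the fibroblast marker level of the same library, as log2(FPKM + 1) of the gene minus the mean of the 12 markers, and compared with Solution by exact two-sided permutation tests of 5 against 5 libraries (24 tests in the family, smallest possible p = 0.00794). By these exact tests Mmp2 in Plerixafor fell further than the fibroblast markers, with a difference of -0.68 (p = 0.00794, adjusted p = 0.0238), while Timp1 differed by 3.46 (p = 0.00794, adjusted p = 0.0238), Timp3 by 1.52 (p = 0.00794, adjusted p = 0.0238), Mmp14 by 1.204 (p = 0.0159, adjusted p = 0.0423) and Timp2 by 0.75 (p = 0.00794, adjusted p = 0.0238). By the same exact tests Mmp2 in Combination differed by -0.77 (p = 0.00794, adjusted p = 0.0238), Timp1 by 3.31 (p = 0.00794, adjusted p = 0.0238), Timp3 by 1.41 (p = 0.00794, adjusted p = 0.0238), Mmp14 by 1.12 (p = 0.00794, adjusted p = 0.0238) and Timp2 by 0.61 (p = 0.0317, adjusted p = 0.0762). Mmp3, Mmp12 and Mmp13 did not pass in either group, and no member passed in anti-PD-1. In all, 9 of the 24 tests passed. The fibroblast level itself was lower in every Plerixafor and Combination library than in every Solution library. A member that stayed level, or fell less than the markers, therefore gives a positive difference, which is no rise of its own level. Against Solution, Timp1 by itself did not pass in either antagonist group, and Timp2, Timp3 and Mmp14 were lower in both. The Mmp14 call in Plerixafor was lost on leaving out Plerixafor 1, 2, 3 or 4 or Solution 1, 2, 3 or 5 (differences of 1.06 to 1.22, exact tests, adjusted p = 0.0693 to 0.0847). With 1 library left out of either group the smallest possible p is larger, so these exact tests are coarser. The adjusted p of Timp1 in Plerixafor then rose to as much as 0.0476.

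**Figure D5:**
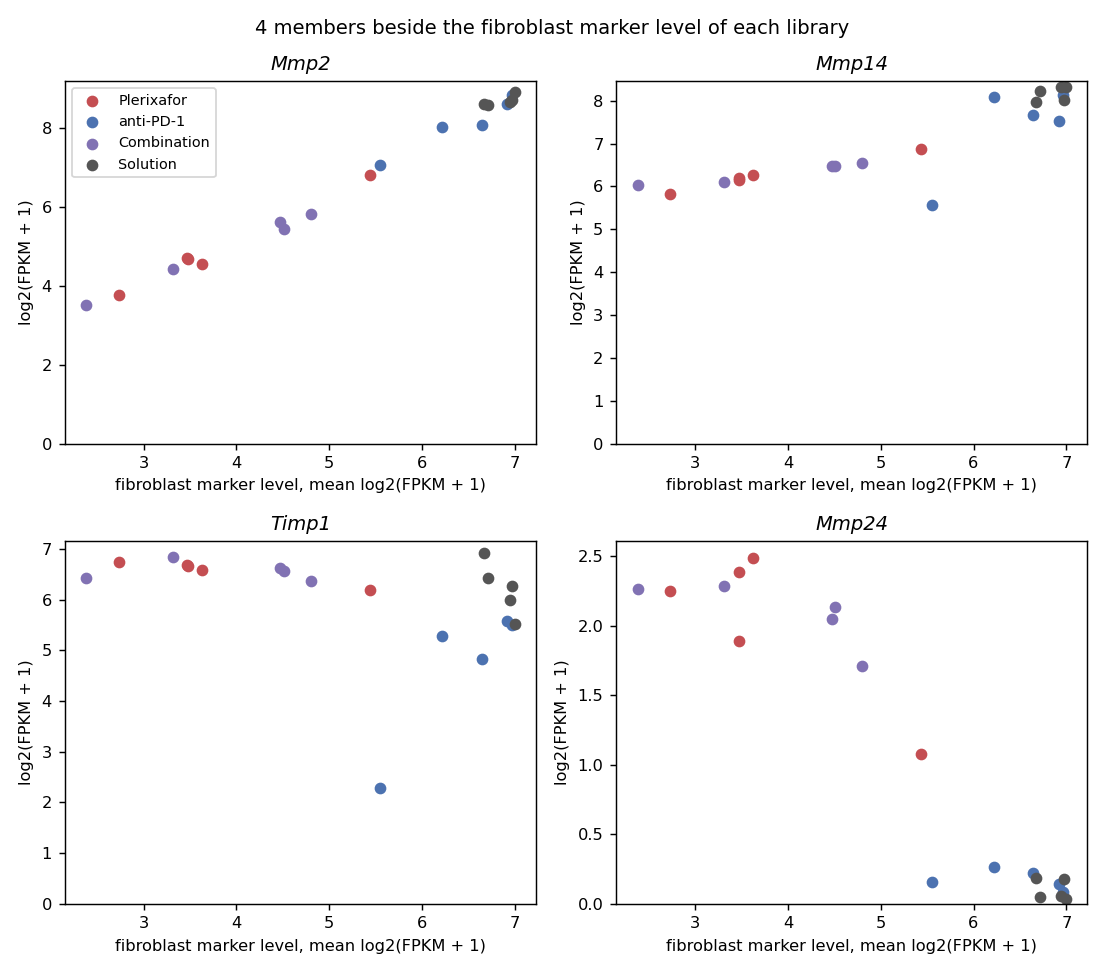
Level of 4 members, log2(FPKM + 1), against the fibroblast marker level of the same library, with 1 point per library and colours for the 4 groups. Mmp2 is lower in the libraries with low fibroblast levels. So is Mmp14, but its lowest value (46.2 FPKM) is in anti-PD-1 library 1, whose fibroblast level of 5.55 exceeds every Plerixafor and Combination library. Timp1 stays high in Plerixafor and Combination libraries, at 94.7 to 107 FPKM in Plerixafor 1 to 4, and Mmp24 is above 1 only in Plerixafor and Combination libraries.

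The 13 members below the filter were Mmp1a, Mmp1b, Mmp7 (matrilysin), Mmp16, Mmp20 (the enamel protease), Mmp21, Adamts3, Adamts8, Adamts13 (which cuts von Willebrand factor), Adamts16, Adamts18, Adamts19 and Adamts20. Their highest mean over the 20 libraries was 0.347 FPKM and their highest single value 1.40 FPKM, in Mmp1b. In the fit without a filter 5 of the 13 passed in Plerixafor and 5 in Combination against Solution, where 61.8% and 62.1% of 18722 genes did, Mmp1b higher and the other 4 lower in each, with Adamts3, Adamts19 and Mmp16 lower in both. In anti-PD-1 1 passed, Adamts20. In that fit 9.65% of 18722 genes passed, and Adamts20 was higher at 0.57 ± 0.13 (adjusted p = 0.0193).

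Other genes of the pathway, taken from lists of activators, inhibitors, relatives and substrates, were compared in the fit of the 12687 genes. Over all genes tested there, 33.2% were lower and 42.3% higher in Plerixafor against Solution, and 34.1% lower and 42.0% higher in Combination. Of 16 tested activators and inhibitors outside the families, 12 were lower and 1 higher in Plerixafor against Solution, and 11 lower and 1 higher in Combination. Reck, a membrane-anchored MMP inhibitor, averaged 0.815 ± 0.557 FPKM in Plerixafor, 0.979 ± 0.603 in Combination and 6.64 ± 0.776 in Solution libraries, a log2 fold change of -2.11 ± 0.23 (adjusted p = 1.94e-07) in Plerixafor. Plau, the urokinase that makes plasmin, changed by -1.91 ± 0.25 (adjusted p = 2.20e-06), Serpine2, a serine protease inhibitor, by -2.17 ± 0.33 (adjusted p = 1.12e-05), and Tfpi2, a Kunitz-type inhibitor, by -2.10 ± 0.35 (adjusted p = 2.45e-05) in Plerixafor. The gene that rose was Bsg, which encodes the MMP inducer basigin. In anti-PD-1 Tfpi2 alone passed, at -1.18 ± 0.35 (adjusted p = 0.0358), where 11.5% of all genes passed.

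Of 8 tested ADAM sheddases, membrane proteases related to the ADAMTS family, 5 were lower in Plerixafor and 6 in Combination, and none was higher. Over all genes tested, 75.5% passed in Plerixafor and 76.1% in Combination, with 33.2% and 34.1% of all genes lower. Adam19 changed by -2.35 ± 0.34 (adjusted p = 6.61e-06), Adam12 by -2.43 ± 0.37 (adjusted p = 1.09e-05) and Adam17, which releases tumour necrosis factor, by -1.17 ± 0.26 (adjusted p = 5.23e-04) in Plerixafor. Of 10 tested ADAMTS-like genes and partners, 7 were lower and 1 (B3glct, a glycosyltransferase of thrombospondin repeats) higher in both antagonist groups. Fbn1, the fibrillin of microfibrils, averaged 23.6 ± 13.0 FPKM in Plerixafor, 22.1 ± 10.7 in Combination and 137 ± 42.7 in Solution libraries.

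Of 13 tested substrates, 10 were lower and 1 higher in Plerixafor, and 11 lower and 1 higher in Combination. Over all genes tested, 75.5% and 76.1% passed in these comparisons, with 33.2% and 34.1% of all genes lower. Dcn, the proteoglycan decorin, averaged 83.2 ± 97.5 FPKM in Plerixafor, 87.1 ± 55.0 in Combination and 881 ± 78.4 in Solution libraries, a log2 fold change of -3.91 ± 0.56 (adjusted p = 4.97e-06) in Plerixafor. The fibrillar collagens Col3a1 and Col1a2 changed by -3.07 ± 0.47 (adjusted p = 1.00e-05) and -2.77 ± 0.45 (adjusted p = 2.45e-05). The substrate that rose was Acan, the aggrecan cut by Adamts4 and Adamts5, which averaged 12.1 ± 6.63 FPKM in Plerixafor, 0.297 ± 0.346 in anti-PD-1, 8.37 ± 3.17 in Combination and 0.0258 ± 0.0108 in Solution libraries. Its log2 fold change was 3.54 ± 0.28 (adjusted p = 2.92e-09) in Plerixafor and 3.13 ± 0.28 (adjusted p = 1.38e-08) in Combination, while Adamts5 fell and Adamts4 did not pass in the same groups. Acan stayed under 0.1 FPKM in every Solution library, so it entered the test through the groups in which it was higher. These are RNA levels, and the aggrecan protein and its cleavage were not measured. None of the 13 substrates passed in anti-PD-1 against Solution, where 11.5% of all genes passed.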

How the data were processed

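RNA from U14 tumours was made into 20 stranded mRNA libraries for Illumina sequencing, as the labels' protocols state. The authors deposited 1 table of FPKM values for 18722 genes; the submitters' processing notes name HISAT2 2.1.0, HTSeq 0.11.2, StringTie 2.1.4, DESeq2 1.28.1 and GRCm39, with no role or order, and which tool made the FPKM and its strand setting are not given in the sources used here. The FPKM steps gave whole reads in all libraries (within 0.02) for 18722 of 18722 genes and 16565807 to 19833872 reads per library. All 20 columns were used. Within groups, all 40 pairs of libraries differed by more than sampling noise (median chi-square per gene 1.91 to 71.5).

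Groups came from the labels. The test was limma 3.58.1 (R 4.3.3) on log2(FPKM + 1) of 12687 genes with at least 1 FPKM in at least 5 libraries, trended empirical Bayes, 1 fit of the 4 groups with 16 residual degrees of freedom, two-sided, Benjamini-Hochberg over all genes. The script was tested on simulated data. Exact permutation tests used scipy 1.17.1. Promoter sequences are RefSeq, GRCm38.p6.

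Values in every library are given for the 8 tested members with the highest mean and, per comparison, the 4 largest rises and falls past the threshold. Values of Mmp1b and Timp4 in every library were added after their values were seen. The members and all lists were chosen with earlier results of these data known. Alternatives were another pseudocount, filters, scalings, weights, covariates, the replicate block, limma-voom on recovered reads and leaving out libraries.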

Additional observations from a re-analysis of the deposited data

Results flagged for a closer look

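Of 132 groups of 5 libraries examined (33 tested members in 4 groups), 14 held a library whose gap to its nearest neighbour exceeded 0.71 of the group's range, Dixon's limit for 5 values. Chance alone flags about 1 in 20 groups, and members share libraries, so these are not 14 independent events.

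In 6 members anti-PD-1 library 1, the library with the highest muscle marker level, lay far below the rest of its group: Mmp14 at 46.2 FPKM (the others at 184 to 279), Timp1 at 3.88 (27.5 to 46.7), Mmp19 at 8.35 (36.6 to 57.3), Mmp23 at 2.94 (13.7 to 18.8), Adamts12 at 3.31 (11.1 to 17.1) and Adamts17 at 0.203 (0.953 to 1.35).

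In 5 members Plerixafor library 5, with the highest fibroblast level of its group, lay far above the others: Adamts2 at 16.1 FPKM (the others at 3.84 to 5.49), Adamts5 at 9.17 (1.35 to 1.78), Adamts15 at 5.65 (0.654 to 1.32), Mmp15 at 2.44 (1.30 to 1.53) and Mmp27 at 1.24 (0.125 to 0.355).

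Among Solution libraries, library 3 was low in Mmp23 at 12.0 FPKM (the others at 17.1 to 19.2), library 1 high in Mmp28 at 1.69 (0.929 to 1.11) and library 2 high in Mmp17 at 2.95 (0.732 to 1.01). The part of muscle, fibroblast or any other RNA in these values was not tested.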

How the results depend on the processing

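No member changed sign while past the threshold under any alternative run. Plerixafor against Solution called 21 to 33 members (28 as reported) over the alternatives, Combination against Solution 21 to 32 (27) and Combination against anti-PD-1 20 to 31 (25); 33, 32 and 31 came with no filter, which tests 46 members (array weights also called 32 of 33 in Combination against Solution), and 21, 21 and 20 with a filter of 5 FPKM, which tests 24. Combination against Plerixafor called 0 throughout. Leaving out 1 library at a time gave 26 to 29, 26 to 30, 24 to 28 and 0 to 0 members in these comparisons, 0 to 0 for the interaction and 8 to 10 of the 24 tests against the fibroblast level (9 as reported).

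Anti-PD-1 against Solution (2 members) was the least stable: quantile normalisation called 4 (1 higher, 3 lower), array weights 7 (4163 of 12687 genes over the whole table), a fit restricted to the pair of groups 0, the muscle level as a covariate 0 and leaving out anti-PD-1 replicates 1, 2 and 5 together 0. Over the whole table the fit of the pair of groups and the muscle covariate also called 0 of 12687 genes. Leaving out anti-PD-1 1, 2 and 5 called 1 of 12475. Leaving out 1 library gave 0 (anti-PD-1 5, Solution 2 or Solution 3) to 7 (anti-PD-1 4, with 4098 of 12667 genes called) members, and 1 without Solution 1, 4 or 5. Array weights called 11 members in the interaction (0 as reported), 9 higher and 2 lower, a share close to that over all genes (4071 of 12687). Apart from fits that change the libraries used, the cause was not tested.

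The replicate numbers were not treated as pairs: over 30 same-numbered pairs the correlation of deviations ran from -0.75 to 0.51 (median -0.08), 7 exceeded 0.1, and 3 of 20 libraries correlated best with their own number. With the replicate block 27, 2, 27 and 25 members passed in Plerixafor, anti-PD-1 and Combination against Solution and in Combination against anti-PD-1; the call of Adamts9 in Plerixafor was lost (adjusted p = 0.0656). Limma-voom on the recovered reads called 27, 2, 28 and 23 members in these comparisons.

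Standard errors were widest for Mmp13 (0.91), Mmp12 (0.78) and Mmp10 (0.76). At low levels the pseudocount sets the size of a change: Mmp24 rests on 2 to 17 reads per library outside the antagonist groups, and its log2 fold change in Plerixafor was 1.92 with a pseudocount of 1, 4.20 with 0.1 and 5.53 by limma-voom. Scaling moved the median of all genes in Combination against anti-PD-1 from 0.15 to -0.02 (median-of-ratios).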
